A study of Mus musculus with 12 samples.

Results

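The acute phase proteins of the liver were followed here as 10 genes, namely the serum amyloid A genes *Saa1*, *Saa2*, *Saa3* and *Saa4*, the orosomucoid genes *Orm1*, *Orm2* and *Orm3*, haptoglobin (*Hp*), hemopexin (*Hpx*) and serum amyloid P component (*Apcs*). They were found by their names in a deposited table of 25676 genes, and all 10 were among the 12278 genes that passed a filter of a mean of at least 0.5 TPM over all mice. TPM is a level per unit of transcript length in which every library sums to 1000000, so it measures a gene's part of its library and not an amount of RNA. The acute phase response is the change in liver secretion that follows infection or injury: cytokines, above all IL-6 and IL-1, act on hepatocytes through STAT3, NF-kB and the C/EBP factors, and the secreted proteins pass into the plasma. Positive acute phase proteins become more abundant in plasma and negative ones, such as albumin and transthyretin, less so.

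The samples were 12 livers of C57BL/6 mice aged 3 to 4 months, 1 RNA-sequencing library for each mouse. WT mice (3 males and 3 females) were compared with Foxa3-Cre YAP1 KO mice (3 males and 3 females), in which Cre recombinase driven by *Foxa3* removed *Yap1*, a transcriptional co-activator of the Hippo pathway; *Foxa3* is active in the embryonic foregut endoderm, from which hepatocytes and bile duct cells both arise, so the removal was not limited to adult hepatocytes. The labels do not describe an injury or an inflammatory stimulus for either genotype, and they do not say whether the WT mice carried Cre. Replicates within a group were separate mice, numbered in order of deposition, and they pair no animals across groups.

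*Yap1* itself was 23.0 to 34.9 TPM in the 6 WT livers and 0.994 to 3.11 TPM in the 6 KO livers, and the log2(TPM + 1) difference was -3.36 (exact permutation within sex, 400 arrangements, two-sided p = 0.005, the smallest this design can give). The depth of the libraries is unknown, and 14321 to 15482 genes were above 0 in each. As deposited, the median difference KO minus WT over all tested genes was 0.35 on the log2(TPM + 1) scale, and it was -0.04 after the libraries were rescaled by the median of gene ratios (called rescaled values below). WT male 2 stood apart before any comparison: 1496 of the 12278 tested genes (12.2%) were higher in it than in all 5 other WT livers and 5216 (42.5%) were lower, its library number comes from a separate run of numbers, and 6 of the 10 genes were higher in it than in any other WT liver. Summed markers of other cells also moved with genotype. The 10 macrophage markers summed to 73.3 to 237 TPM in WT and 357 to 738 TPM in KO, and the 6 cholangiocyte markers to 27.7 to 58.5 and 252 to 713 TPM. Of the latter *Spp1* and *Sox9* rose (3.76 and 1.57), *Epcam* fell (-0.35), *Krt19* did not pass (-0.12), and *Krt7* and *Cftr* were below the filter. *Spp1* alone was 21.9 to 52.5 TPM in WT and so made up most of that sum there. The 10 hepatocyte markers overlapped, at 70163 to 99829 TPM in WT and 54922 to 78078 TPM in KO, with none at 0, and the 5 erythroid markers overlapped too, at 788 to 2161 and 564 to 3396 TPM. Within females the hepatocyte sums did not overlap, at 96582 to 99829 TPM in WT and 62700 to 78078 TPM in KO, and within males they did. The part of these cells in the differences below was not tested, and in bulk liver fewer cells of a type and less RNA per cell cannot be told apart.

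The genes fall into 2 clusters and 3 single loci in GENCODE M21 (build GRCm38). The 4 *Saa* genes lie on chromosome 7, with *Saa3* at chr7:46711998-46715700, *Saa4* at chr7:46727998-46732603 and *Saa1* at chr7:46740497-46742980, all on the minus strand, and *Saa2* at chr7:46751790-46754313 on the plus strand, so that *Saa1* and *Saa2* are transcribed away from each other. The 3 *Orm* genes lie on the plus strand of chromosome 4, with *Orm1* at chr4:63344560-63348163, *Orm3* at chr4:63356162-63359511 and *Orm2* at chr4:63362449-63365878. *Hpx* lies at chr7:105591613-105600137, *Hp* at chr8:109575128-109579172 and *Apcs* at chr1:172893961-172895041, all on the minus strand. The RefSeq promoter table used here (GRCm38.p6) was matched for 8 of the 10 genes, all but *Orm1* and *Hp*.

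The 250 bases before the RefSeq start of 5 of these genes, less any that lie inside the gene as GENCODE gives it, are printed because *Saa1* and *Saa2*, and *Orm2* and *Orm3*, are close copies in sequence, and *Saa4*, a more distant member of its cluster, fell where *Saa1* and *Saa2* rose. Capitals mark every match on either strand to the C/EBP letters TTNNGNAA.
Saa1: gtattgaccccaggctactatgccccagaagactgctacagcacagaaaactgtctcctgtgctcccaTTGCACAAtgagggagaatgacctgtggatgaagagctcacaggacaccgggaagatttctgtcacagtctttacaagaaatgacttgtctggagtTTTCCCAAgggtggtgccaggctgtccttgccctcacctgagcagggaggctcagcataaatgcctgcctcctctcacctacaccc
Saa2: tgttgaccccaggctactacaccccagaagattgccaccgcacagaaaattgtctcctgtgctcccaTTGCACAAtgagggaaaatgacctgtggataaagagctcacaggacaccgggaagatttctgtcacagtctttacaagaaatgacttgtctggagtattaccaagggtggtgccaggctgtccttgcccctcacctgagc
Saa4: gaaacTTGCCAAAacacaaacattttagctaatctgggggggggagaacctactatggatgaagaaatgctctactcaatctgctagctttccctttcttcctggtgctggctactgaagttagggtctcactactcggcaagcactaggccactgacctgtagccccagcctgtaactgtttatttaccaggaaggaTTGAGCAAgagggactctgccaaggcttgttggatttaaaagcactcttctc
Orm2: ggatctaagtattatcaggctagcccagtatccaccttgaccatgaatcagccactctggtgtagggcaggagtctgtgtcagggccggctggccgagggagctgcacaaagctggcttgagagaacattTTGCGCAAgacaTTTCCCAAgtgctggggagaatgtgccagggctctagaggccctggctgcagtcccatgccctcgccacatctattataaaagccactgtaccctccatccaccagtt
Orm3: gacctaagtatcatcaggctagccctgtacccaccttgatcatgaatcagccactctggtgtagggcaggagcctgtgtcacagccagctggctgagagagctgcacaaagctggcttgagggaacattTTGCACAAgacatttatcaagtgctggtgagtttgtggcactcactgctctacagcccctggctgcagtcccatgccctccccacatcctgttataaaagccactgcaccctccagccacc
The windows are chr7:46742981-46743230 for *Saa1* and chr7:46732604-46732853 for *Saa4* on the minus strand, and chr7:46751583-46751789 for *Saa2*, chr4:63362199-63362448 for *Orm2* and chr4:63355908-63356157 for *Orm3* on the plus strand. The RefSeq start of *Saa2* lies inside the GENCODE gene, so the last 43 bases of its window are not printed and 207 are; positions below are counted from the RefSeq start. Over the 300-base RefSeq windows (250 bases before to 50 bases after the start), those of *Saa1* and *Saa2* were identical at 96.0% of 299 aligned bases and those of *Orm2* and *Orm3* at 89.2% of 295, while that of *Saa4* matched *Saa1* at 59.1% of 252. *Saa1* and *Saa2* share TTGCACAA, at -182 to -175 and -183 to -176 from the start, and TTTCCCAA, at -86 to -79, was found in *Saa1* and not in *Saa2*. *Orm2* holds TTGCGCAA at -120 to -113, which matches on both strands, and TTTCCCAA at -108 to -101; *Orm3* holds TTGCACAA at -121 to -114 and not the second match. The C/EBP letters were found in 7 of the 8 promoters, and in 40.68% of 27025 RefSeq promoters of the same length. The STAT letters TTCNNNGAA were found in 1 of the 8, that of *Apcs* (TTCTAGGAA, -244 to -236), and in 8.47% of all promoters. The TEAD letters GGAATG (14.63% of all promoters) were found in none of the 8, and neither were single consensus sequences searched for NF-kB (1.62%) and HNF1 (0.01%). A match is a description of these letters and not a bound site. For NF-kB and for HNF1 only 1 set of letters was searched, and sequences that differ from it at a fixed base were not counted. The absence of a match thus does not show that *Saa1* or any other of the 8 promoters lacks an NF-kB-like sequence.

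The close copies can share reads. The longest coding transcripts of *Saa1* and *Saa2* were identical at 94.4% of 606 aligned bases, but 0.0% of their runs of 100 bases were shared. *Orm1* and *Orm2* were identical at 91.0% of 775 bases and shared 7.0% of such runs, whereas *Orm3* shared 0.0% with either. How the authors' counting placed reads that match more than 1 copy is not given in the sources used here, so values of single *Saa* and *Orm* genes are uncertain.

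Most of the 10 genes were higher in KO liver. By limma with sex as a covariate, 7 rose (*Saa1*, *Saa2*, *Orm1*, *Orm2*, *Orm3*, *Hp* and *Hpx*), 1 fell (*Saa4*), and *Saa3* and *Apcs* did not pass the test, against a background of 54.9% of the tested genes called in either direction (50.1% higher and 4.82% lower). The median difference over the 10 genes was 1.94 on the log2(TPM + 1) scale beside 0.35 over all tested genes. On rescaled values 5 rose and 1 fell, with a background of 39.6% (20.9% higher and 18.7% lower), and the medians were 1.48 and -0.04; *Saa1* and *Saa2* were the genes that no longer passed, and with WT male 2 left out as well 7 rose and 2 fell (background 21.4% higher and 19.7% lower). The KO values did not overlap the WT values for 5 of the 10 genes (*Orm1*, *Orm2*, *Orm3*, *Hp* and *Hpx*), which were higher in all 6 KO mice, while such a gap in that direction was seen for 28.7% of all tested genes. On rescaled values the gap remained for *Orm2*, *Hp* and *Hpx*, and *Orm1* and *Orm3* overlapped, beside 10.8% of all tested genes. Together the 10 genes held 0.836% to 1.03% of all TPM in 5 WT livers, 2.06% in WT male 2 and 3.06% to 4.77% in KO livers.

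**Figure D1:**
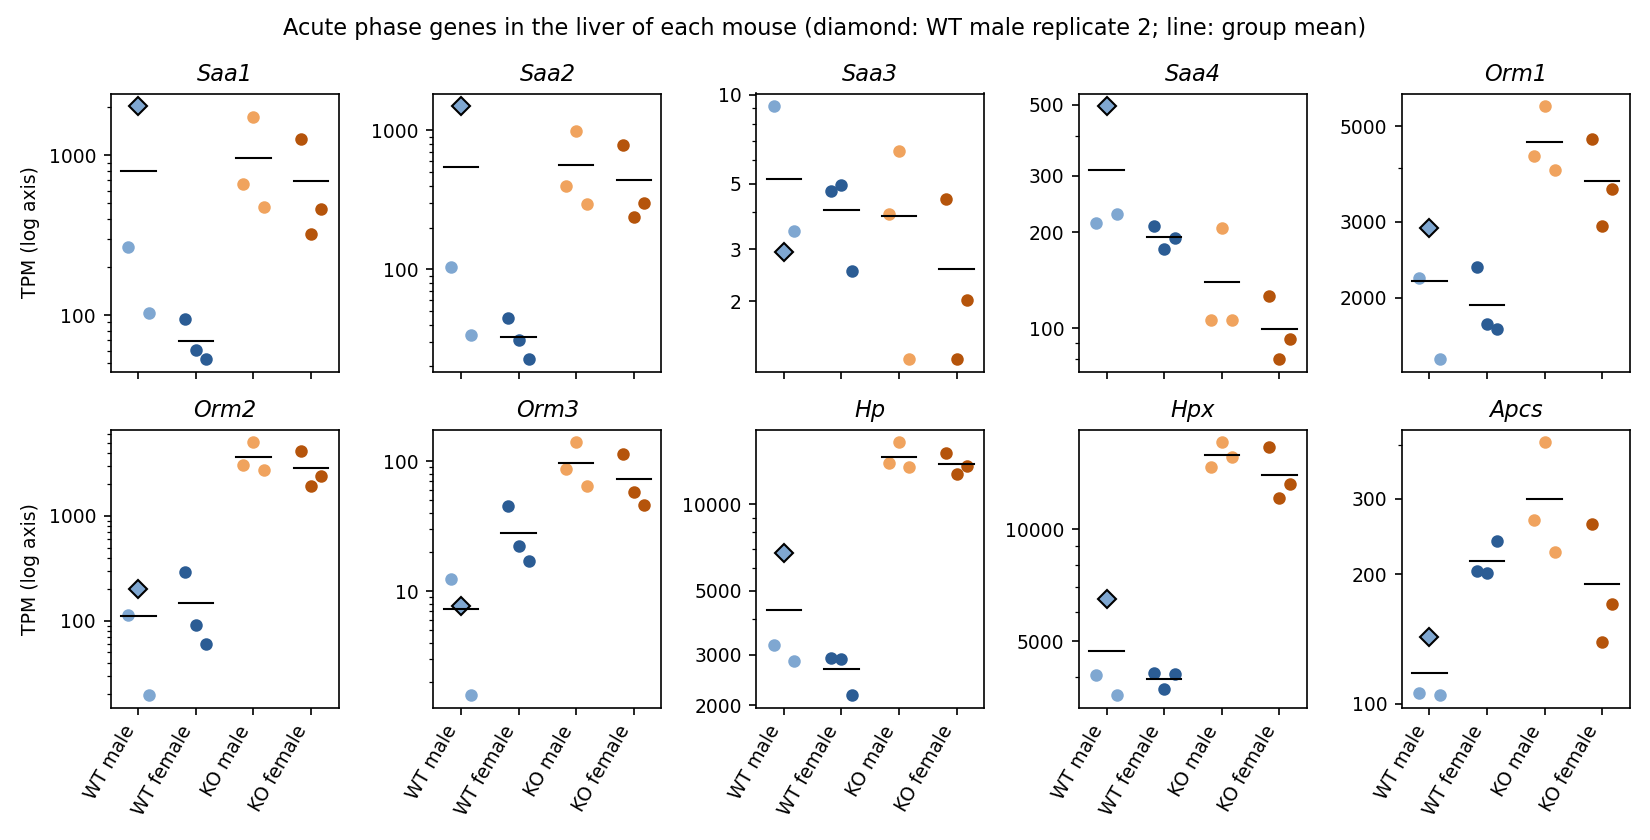
TPM of each gene in each of the 12 livers on a log axis, with 1 panel per gene and 1 column per group; a point is 1 mouse, the line is the group mean and the diamond is WT male 2. Both genotypes are apart for *Orm1*, *Orm2*, *Orm3*, *Hp* and *Hpx*, and the diamond lies above every KO point for *Saa1* and *Saa2*.

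Haptoglobin, which binds free haemoglobin in plasma, was among the most abundant transcripts of the KO liver. It was 3244, 6800 and 2847 TPM in WT males, 2925, 2901 and 2168 TPM in WT females, 13960, 16460 and 13514 TPM in KO males and 15097, 12720 and 13580 TPM in KO females. Every KO liver was above every WT liver, and WT male 2 lay between them. The mean rose from 3481 ± 1664 to 14222 ± 1343 TPM (SD, n = 6 each), and *Hp* went from place 42 to place 10 among all genes by mean TPM. The log2(TPM + 1) difference was 2.13 (SE 0.20, limma adjusted p = 2.1e-06), and 1.66 on rescaled values.

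Hemopexin, which binds free haem, followed the same pattern. It was 4053, 6495 and 3579 TPM in WT males, 4091, 3715 and 4087 TPM in WT females, 14702, 17119 and 15596 TPM in KO males and 16621, 12133 and 13228 TPM in KO females. The 6 KO values again lay above all WT values, with WT male 2 the highest WT liver. The mean was 4337 ± 1079 TPM in WT and 14900 ± 1942 TPM in KO (SD, n = 6 each), or place 35 and place 8 among all genes. The log2(TPM + 1) difference was 1.80 (SE 0.15, limma adjusted p = 7.1e-07), and *Hpx* was the member with the smallest spread between mice of a group (residual SD 0.26 on that scale, beside a median of 0.25 over all tested genes, and 0.15 beside 0.24 without WT male 2). The ratio of *Hp* to *Hpx* was 0.866 to 1.05 in KO. It was lower in 5 WT livers, at 0.53 to 0.80, and WT male 2, at 1.05, lay within the KO range.

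The orosomucoids, or alpha-1-acid glycoproteins, are abundant plasma glycoproteins that bind drugs and lipids. *Orm1* was the main copy in WT liver, at 2226, 2901 and 1444 TPM in males and 2355, 1737 and 1698 TPM in females, and it was 4255, 5561 and 3957 TPM in KO males and 4669, 2935 and 3566 TPM in KO females. The lowest KO value was just above that of WT male 2 and clear of the other 5 WT livers. The difference was 1.02 (SE 0.18, limma adjusted p = 0.00039) and 0.56 on rescaled values (limma adjusted p = 0.045), where the groups overlapped.

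*Orm2* had the largest genotype difference of the 10 genes. It was 113, 201 and 19.6 TPM in WT males and 295, 92.1 and 59.7 TPM in WT females, against 3052, 5043 and 2737 TPM in KO males and 4158, 1945 and 2409 TPM in KO females. No KO liver came near any WT liver, and the mean went from 130 ± 101 to 3224 ± 1162 TPM (SD, n = 6 each), from place 791 to place 42 among all genes. The log2(TPM + 1) difference was 4.99 (SE 0.52, limma adjusted p = 4.2e-06), and 4.53 on rescaled values. Within WT the gene was also variable, with a 15.1-fold range between its highest and lowest liver. The lowest was WT male 3, at 19.6 TPM, and the other WT livers ran from 59.7 to 295 TPM.

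*Orm3* was the scarcest copy. It was 12.5, 7.69 and 1.58 TPM in WT males, 45.5, 22.2 and 17.1 TPM in WT females, 87.5, 140 and 65.0 TPM in KO males and 114, 58.4 and 46.3 TPM in KO females. The lowest KO female was barely above the highest WT female, while the males were far apart. The difference was 2.58 (SE 0.51, limma adjusted p = 0.00084), 3.80 within males (limma adjusted p = 0.00018) and 1.35 within females (limma adjusted p = 0.078). The difference within females passed without WT male 3 or WT female 1 (limma adjusted p = 0.021 and 0.048). The difference between these effects was 2.45 (95% interval 0.76 to 4.14, limma adjusted p = 0.31), so a sex difference in the effect was not shown.

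Within a mouse the *Orm* copies changed their proportions, and a ratio within 1 library does not depend on how libraries are scaled. *Orm2* was 0.0135 to 0.125 of *Orm1* in the 6 WT livers and 0.663 to 0.907 of it in the 6 KO livers, with no overlap. *Orm2* stood at 3.49 to 26.2 times *Orm3* in WT, or at most 12.3 times without WT male 2, and at 33.3 to 52.1 times in KO, again with no overlap. *Orm3* relative to *Orm1* was 0.0011 to 0.0193 in WT and 0.0130 to 0.0252 in KO, which overlapped. WT male 2 had an *Orm2* to *Orm1* ratio of 0.0694, inside the range of the other WT livers, although its *Orm1* was the highest in WT.

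*Saa1* and *Saa2* encode the acute phase serum amyloid A proteins, which circulate on high density lipoprotein. *Saa1* was 268, 2030 and 103 TPM in WT males, 93.9, 60.7 and 53.2 TPM in WT females, 662, 1739 and 476 TPM in KO males and 1272, 322 and 464 TPM in KO females. WT male 2 held more *Saa1* than any KO liver, and the other 5 WT livers held less than every KO liver. The mean was 435 ± 785 TPM in WT and 823 ± 560 TPM in KO (SD, n = 6 each), and without WT male 2 the WT mean was 116 ± 87.9 TPM (n = 5). The log2(TPM + 1) difference was 2.08 (SE 0.65, limma adjusted p = 0.016), 1.62 on rescaled values (limma adjusted p = 0.083), 2.73 without WT male 2 (limma adjusted p = 0.00018) and 2.30 with both changes (limma adjusted p = 0.0013). The adjusted p ranged from 0.00018 to 0.083 over 21 other settings.

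*Saa2* behaved alike. It was 104, 1495 and 33.7 TPM in WT males, 44.6, 31.0 and 22.7 TPM in WT females, 399, 987 and 296 TPM in KO males and 783, 237 and 299 TPM in KO females. As for *Saa1*, only WT male 2 kept the genotypes from being apart. The difference was 2.52 (SE 0.75, limma adjusted p = 0.013), 2.05 on rescaled values (limma adjusted p = 0.058) and 3.32 without WT male 2 (limma adjusted p = 2.8e-05). *Saa1* was 1.96 to 3.07 times *Saa2* in the 5 other WT livers and 1.36 to 1.76 times in the 6 KO livers, and the ratio in WT male 2, 1.36, lay in the KO range.

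Neither rise could be called within males with all mice. There the *Saa1* difference was 1.09 (95% interval -0.78 to 2.96, limma adjusted p = 0.31) and the *Saa2* difference 1.48 (-0.72 to 3.67, limma adjusted p = 0.24), and without WT male 2 they were 2.29 and 3.02 (limma adjusted p = 0.014 and 0.0029). Within females the differences were 3.08 and 3.56 (limma adjusted p = 0.015 and 0.017). Neither call in females held without KO female 1 (2.51 and 3.04, limma adjusted p = 0.064 for both), and that for *Saa2* did not hold without WT female 3 (3.32, limma adjusted p = 0.054).

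*Saa4*, the constitutive serum amyloid A of HDL, moved the other way. It was 214, 496 and 228 TPM in WT males, 209, 177 and 192 TPM in WT females, 107, 207 and 106 TPM in KO males and 127, 80.3 and 92.6 TPM in KO females. Within each sex every KO liver was below every WT liver, and across the sexes KO male 2 overlapped the WT females. The log2(TPM + 1) difference was -1.04 (SE 0.22, limma adjusted p = 0.0015) and -1.50 on rescaled values, where all 6 KO livers were below all 6 WT livers. The fall passed the test within males (-1.12, limma adjusted p = 0.014) and within females (-0.97, limma adjusted p = 0.035), but the adjusted p within females rose above 0.05 with no filter and without WT female 1, 2 or 3 or KO female 2 or 3, reaching 0.11. Within males it was -0.73 without WT male 2 (limma adjusted p = 0.054), -0.96 without KO male 1 (limma adjusted p = 0.052) and -0.96 without KO male 3 (limma adjusted p = 0.063). *Saa4* was 0.244 to 3.62 times *Saa1* in WT and 0.0995 to 0.25 times in KO; WT male 2, at 0.244, gave the lowest WT ratio and the next WT liver stood at 0.795.

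*Saa3*, which in mice is made chiefly by macrophages and adipose tissue, was scarce and did not pass the test. It was 9.17, 2.94 and 3.47 TPM in WT males, 4.73, 4.96 and 2.53 TPM in WT females, 3.96, 6.45 and 1.28 TPM in KO males and 4.44, 1.27 and 2.01 TPM in KO females. The groups overlapped throughout. The difference was -0.46 (95% interval -1.15 to 0.23, limma adjusted p = 0.24), and of 20 other settings it passed only with rescaling and without WT male 2 together (-0.91, limma adjusted p = 0.046). All 10 macrophage markers rose in the same comparison as deposited, and 9 did on rescaled values. The 6 adipocyte markers summed to 0.811 to 4.32 TPM in WT and 6.40 to 19.7 TPM in KO. The 2 that could be tested, *Cidec* and *Plin4*, rose by 1.66 and 1.43 as deposited and passed on rescaled values too, while *Adipoq*, *Plin1*, *Lep* and *Retn* were at 0 in every KO male and *Lep* in every KO female. The same 4 genes were at 0 in every WT female. WT male 1 held 0.594 TPM of *Adipoq*, and KO female 3 held 3.73 TPM of *Adipoq* and 1.25 TPM of *Plin1*. The part of these cells in the *Saa3* level was not tested. In both genotypes *Saa3* was the last of the 10 genes in level, 4.63 ± 2.42 TPM in WT and 3.24 ± 2.07 TPM in KO (SD, n = 6 each).

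*Apcs* encodes a pentraxin that binds amyloid fibrils and is a main acute phase protein of the mouse. It was 106, 143 and 105 TPM in WT males, 203, 202 and 240 TPM in WT females, 268, 406 and 226 TPM in KO males and 262, 139 and 170 TPM in KO females. All 3 KO males were above all 3 WT males, and KO and WT females overlapped. The difference with both sexes was 0.55 (95% interval -0.04 to 1.13, limma adjusted p = 0.10) and 0.08 on rescaled values, and it passed in 1 of 21 other settings, without KO female 2 (0.72, limma adjusted p = 0.027). Within males *Apcs* rose by 1.31 (limma adjusted p = 0.0013), or 0.74 on rescaled values (limma adjusted p = 0.070), and within females the difference was -0.22 (95% interval -0.76 to 0.32, limma adjusted p = 0.53). The male effect minus the female effect was 1.53 (95% interval 0.77 to 2.30, limma adjusted p = 0.078); it passed with a covariate for the 2 mice with early animal numbers (limma adjusted p = 0.045) and without KO female 1 (limma adjusted p = 0.020), and the adjusted p ran from 0.020 to 0.29 over 21 other settings.

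**Figure D2:**
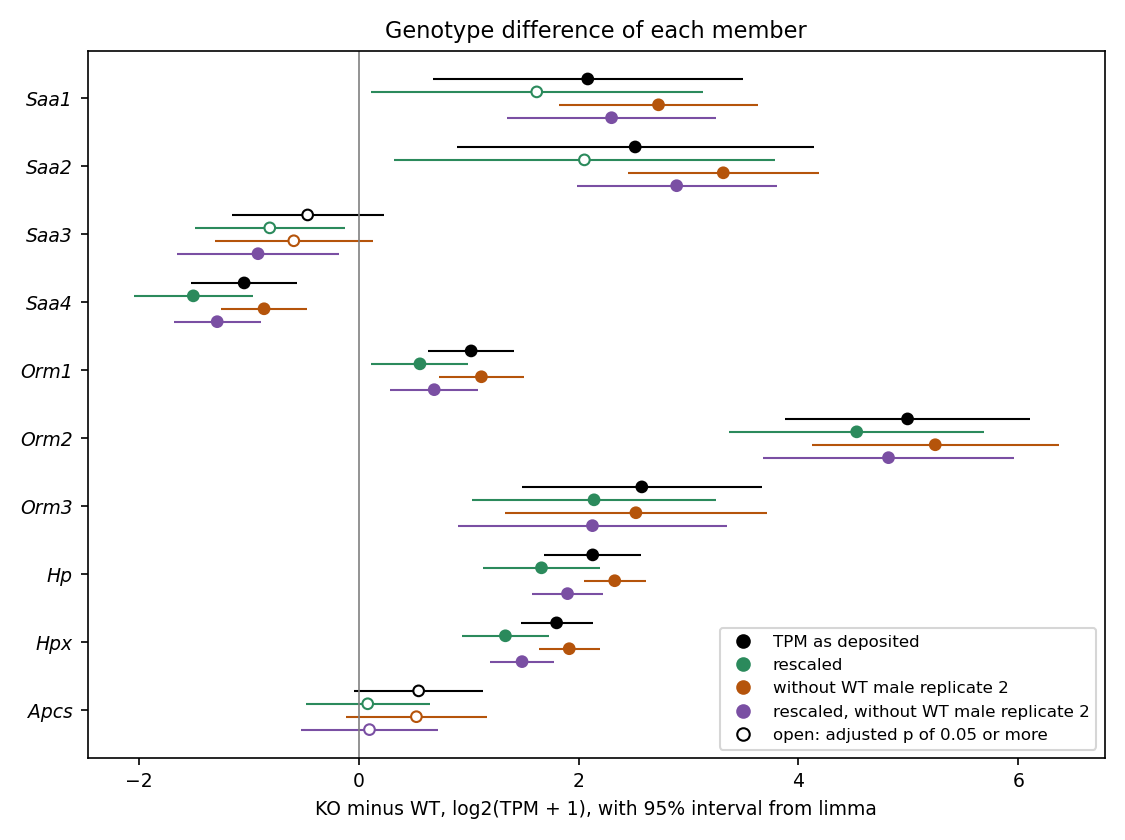
KO minus WT difference of each gene on the log2(TPM + 1) scale with its 95% interval, for TPM as deposited, rescaled values, all mice but WT male 2, and both changes; a filled point has a limma adjusted p under 0.05. *Orm2* lies between 4.53 and 5.24 in the 4 versions, *Saa4* is below 0 in all 4, and *Saa1* and *Saa2* are open only on rescaled values with all mice.

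The authors' deposited table gives its own comparison of KO with WT, whose method the file headers do not state. For the genes above, the authors' deposited table lists log2 fold changes of 4.07 for *Orm2*, 2.26 for *Orm3*, 1.31 for *Hp*, 1.15 for *Hpx*, 0.69 for *Saa1*, 0.38 for *Orm1*, 0.35 for *Saa2*, 0.25 for *Apcs*, -1.06 for *Saa3* and -1.80 for *Saa4*. In the authors' deposited table the FDR p is 0.49 for *Saa1*, 0.79 for *Saa2*, 0.39 for *Orm1*, 0.55 for *Apcs*, 0.05 for *Saa3* and 0.0, after rounding by the authors, for the other 5. *Saa1*, *Saa2* and *Orm1* are thus called by limma on deposited TPM and not in the authors' deposited table.

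Within males 6 of the 10 genes rose (*Orm1*, *Orm2*, *Orm3*, *Hp*, *Hpx* and *Apcs*) and *Saa4* fell, with a background of 43.3% of tested genes higher and 2.81% lower. On rescaled values 4 rose (background 13.9%), without *Orm1* and *Apcs*, and without WT male 2 the count was 8 (background 33.3%), with *Saa1* and *Saa2* added, and 0 fell. Within females 6 rose (*Saa1*, *Saa2*, *Orm1*, *Orm2*, *Hp* and *Hpx*) and *Saa4* fell, with a background of 29.1% higher and 4.68% lower. On rescaled values 5 rose (background 15.2%), without *Orm1*, and without KO female 1 the count was 3 (background 23.1%): *Orm2*, *Hp* and *Hpx*. The *Orm1* call within females also ended without WT female 2 (0.87, limma adjusted p = 0.055) or WT female 3 (0.85, limma adjusted p = 0.052). For the interaction of genotype and sex, 0 of the 10 genes passed limma's threshold, where the background was 0.912%, and 2 had an unadjusted p under 0.05 (*Orm3* and *Apcs*), as did 8.85% of all tested genes. The *Orm2* difference was 5.48 in males and 4.50 in females, that of *Hp* 1.88 and 2.38, that of *Hpx* 1.79 and 1.81, and that of *Orm1* 1.11 and 0.94.

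Between the sexes no gene of the 10 passed limma's threshold in WT (background 5.74%) or in KO (background 0.0814%). In WT, 4 of the 10 genes (*Saa1*, *Saa2*, *Orm3* and *Apcs*) had an unadjusted p under 0.05, as did 25.6% of all tested genes. *Orm3* was lower in all 3 WT males than in all 3 WT females, with a 95% interval of -3.20 to -0.81 for male minus female (limma adjusted p = 0.053, and 0.031 to 0.19 over 21 other settings), and so was *Apcs*, where WT male minus WT female was -0.87 (limma adjusted p = 0.059, and 0.034 to 0.18). *Orm3* passed without WT male 1 or KO female 1, *Apcs* without KO male 2 or KO female 1 or 2, and both without the 20 most abundant genes in the sum. *Saa1* was 2.50 higher in WT males (limma adjusted p = 0.10), or 1.30 without WT male 2 (limma adjusted p = 0.35), and passed without WT male 3, at 3.44 (limma adjusted p = 0.016). *Saa2* was 2.44 higher (limma adjusted p = 0.16), or 0.89 without WT male 2 and 3.61 without WT male 3 (limma adjusted p = 0.52 and 0.022). In KO, *Apcs* alone of the 10 had an unadjusted p under 0.05, as did 5.33% of all tested genes, with a male minus female difference of 0.66 (limma adjusted p = 0.86).

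In order of mean level the WT liver held *Hpx* (4337 TPM), *Hp* (3481 TPM), *Orm1* (2060 TPM), *Saa1* (435 TPM), *Saa2* (288 TPM), *Saa4* (253 TPM), *Apcs* (166 TPM), *Orm2* (130 TPM), *Orm3* (17.8 TPM) and *Saa3* (4.63 TPM). The KO order differed in the middle, with *Orm2* (3224 TPM) just below *Orm1* (4157 TPM), and with *Apcs* (245 TPM) above *Saa4* (120 TPM). In WT each neighbouring pair in this order had overlapping ranges, but *Hpx* with *Hp*, *Orm1* with *Saa1* and *Saa2* with *Saa4* overlapped only through WT male 2. Without that liver the order below *Orm1* was *Saa4* (204 TPM), *Apcs* (171 TPM), *Saa1* and *Orm2* (both 116 TPM), *Saa2* (47.3 TPM), *Orm3* (19.8 TPM) and *Saa3* (4.97 TPM). In KO the ranges of neighbours overlapped except *Hp* with *Orm1*, *Orm2* with *Saa1*, and *Orm3* with *Saa3*. In WT females alone *Saa1* and *Saa2* were places 7 and 8 of the 10, below *Saa4*, *Apcs* and *Orm2*, at 69.3 ± 21.7 and 32.7 ± 11.1 TPM (SD, n = 3).

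**Figure D3:**
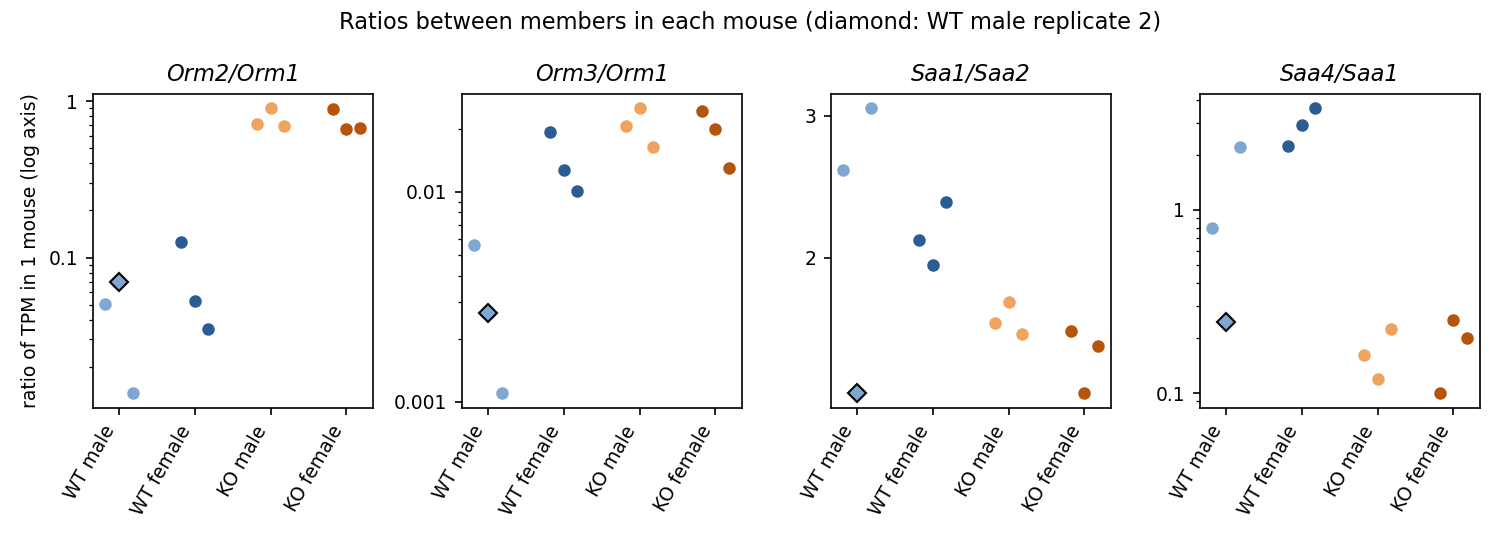
Ratios between genes within each mouse, on log axes, with 1 point per mouse by group; the diamond is WT male 2. The *Orm2* to *Orm1* ratio is at most 0.125 in WT livers and at least 0.663 in KO livers, and WT male 2 lies with WT for *Orm2*/*Orm1* and with KO for *Saa1*/*Saa2*.

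The genes varied between mice of one group. The residual SD within groups on the log2(TPM + 1) scale was 1.55 for *Saa2*, 1.32 for *Saa1*, 1.10 for *Orm2*, 0.83 for *Orm3*, 0.69 for *Saa3*, 0.47 for *Saa4*, 0.37 for *Hp*, 0.36 for *Orm1*, 0.35 for *Apcs* and 0.26 for *Hpx*, beside a median of 0.25 over all tested genes. Without WT male 2 those of *Saa1* and *Saa2* were 0.87 and 0.85, and those of *Hp* and *Hpx* were 0.18 and 0.15, beside a median of 0.24 over all tested genes. KO male 2 and KO female 1 were each the highest mouse of their group in 10 of the 10 genes, and KO male 3 and KO female 2 were the lowest in 9. WT male 2 was the highest WT male in 8 and WT male 3 the lowest in 8, and WT female 1 was the highest WT female in 8 and WT female 3 the lowest in 7. These counts are on deposited TPM, and the same share over all tested genes was not computed. The library factors of the rescaling were 1.28 in KO female 1 beside 1.12 and 1.17 in KO females 2 and 3. They were 1.15 in KO male 2 beside 1.09 and 1.34 in KO males 1 and 3. KO female 1 and WT female 3 are the 2 mice whose titles carry early animal numbers, and with a covariate for these numbers 7 genes still rose and 1 fell with genotype.

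**Figure D4:**
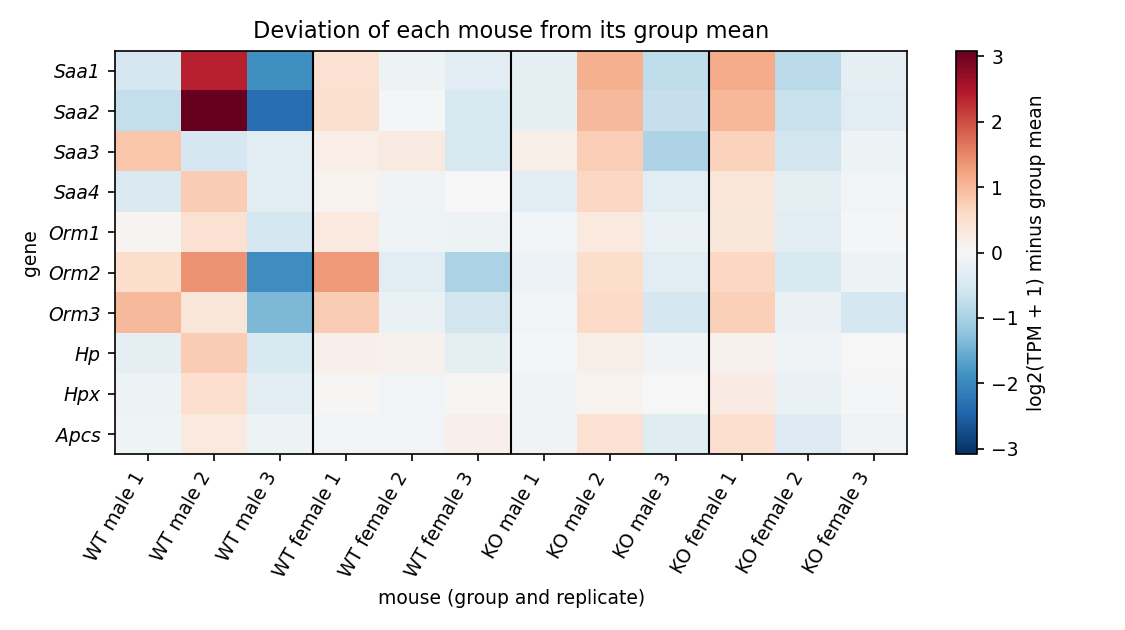
Deviation of each mouse (columns) from the mean of its group, on the log2(TPM + 1) scale, for each gene (rows); red is above and blue below the group mean. KO male 2 and KO female 1 are red in all 10 rows, and WT male 2 reaches 3.09 in *Saa2* and 2.40 in *Saa1* while it lies 0.52 below its group mean in *Saa3*.

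Deviations from the group mean were correlated over the 12 mice for each of the 45 pairs of genes. All 45 Pearson correlations were positive, with a median of 0.753 and a range of 0.042 to 0.989. Over all 75368503 pairs of tested genes 59.5% were positive and the median was 0.11, and on rescaled values 50.3% were positive while all 45 pairs of the 10 genes still were, with a median of 0.772. Of the 45 pairs, 25 had an adjusted p under 0.05 by exact permutation within groups (all arrangements, Benjamini-Hochberg over the 45 pairs). By rank correlation 12 pairs did. Without WT male 2 the count was 23, and on rescaled values 24. The points of all pairs come from the same 12 libraries, and the share of all gene pairs that would pass the same test was not computed.

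*Saa1* and *Saa2* were the closest pair (r = 0.989, adjusted exact permutation p = 0.0069; rho = 0.972, adjusted exact permutation p = 0.0087), and r was 0.987 without the 2 mice farthest from the median of *Saa1*. In the *Orm* cluster, *Orm1* and *Orm2* were the closest with all mice (r = 0.939, adjusted exact permutation p = 0.0069, and rho = 0.951, adjusted exact permutation p = 0.0087), with r = 0.877 without 2 mice. *Orm2* and *Orm3* gave r = 0.884 without 2 mice. Without WT male 2 they were the closest, at r = 0.949 beside 0.912 for *Orm1* and *Orm2*. *Saa1* and *Saa4* varied together (r = 0.913, adjusted exact permutation p = 0.035; rho = 0.846, adjusted exact permutation p = 0.041), although one rose and the other fell with genotype; r was 0.920 without 2 mice, and 0.812 without WT male 2 (adjusted exact permutation p = 0.056). *Hp* and *Hpx* gave r = 0.863 (adjusted exact permutation p = 0.049) and rho = 0.769 (adjusted exact permutation p = 0.061), which rested on few mice: r was 0.516 without the 2 farthest and 0.454 without WT male 2. With all mice *Saa3* gave the weakest pairs, with r = 0.042 with *Hpx* and 0.050 with *Hp*. For *Saa3* and *Hp* the adjusted exact permutation p was 0.95, rho was 0.203 (adjusted exact permutation p = 0.65) and r was 0.166 without 2 mice. Without WT male 2, r of *Saa3* and *Hp* was 0.821 (adjusted exact permutation p = 0.021), and the weakest pair was *Orm2* with *Apcs* (r = 0.297).

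The genes outside the 10 whose deviations were most like theirs over the 12 mice are given as a description. *Fgl1*, a secreted liver protein of the fibrinogen family, was the nearest to *Saa1* (r = 0.951) and among the 3 nearest to *Saa2* (0.931), *Saa4* (0.886), *Orm1* (0.933) and *Hp* (0.912). *Tmem176b* was the nearest to *Orm1* (0.948), *Tmem176a* to *Saa2* (0.940), *Zfp746* to *Orm2* (0.972), *Etfbkmt* to *Orm3* (0.918) and *Mrps18c* to *Saa3* (0.956). *Cpne8* was the nearest to *Hpx* (0.956) and to *Saa4* (0.928), and *Rbmx2* was the nearest to *Apcs* (0.948). Without WT male 2 the nearest gene stayed the same for *Orm2* (*Zfp746*, 0.962) and *Saa3* (*Mrps18c*, 0.980) and differed for the other 8 genes.

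The counts of related lists stand beside shares of all tested genes of 50.1% higher and 4.82% lower as deposited, and 20.9% and 18.7% on rescaled values. Of 16 other positive acute phase genes, 14 rose in KO liver, 0 fell and 2 did not pass, with a median difference of 0.97 beside 0.35 over all tested genes; on rescaled values 7 rose and 2 fell, with a median of 0.50 beside -0.04. *Lcn2*, lipocalin 2, which binds bacterial siderophores, had the largest difference, 6.06 (SE 0.45, limma adjusted p = 2.1e-07), from 6.81 to 67.0 TPM in WT to 824 to 2252 TPM in KO. Neutrophils also express *Lcn2*, and the 8 neutrophil markers summed to 0.218 TPM in WT male 3 and 4.75 to 20.3 TPM in the other WT livers, where *Ly6g* was at 0 in every liver, and to 12.9 to 47.7 TPM in KO; their part was not tested. *Mt2*, a metallothionein, rose by 2.58 (limma adjusted p = 0.0063), *Il1rn*, the IL-1 receptor antagonist, by 1.91 (limma adjusted p = 5.9e-05), and *Cp*, ceruloplasmin, by 1.83 (limma adjusted p = 5.2e-07). These 4 also rose on rescaled values. The following were named after their values were seen. *Crp* and *Hamp*, hepcidin, were the 2 that did not pass (-0.21 and -0.42) and both fell on rescaled values (-0.68 and -0.88, limma adjusted p = 0.00094 and 0.037). The fibrinogen chains *Fga*, *Fgb* and *Fgg* rose by 0.62, 0.53 and 0.48 as deposited and were 0.15, 0.07 and 0.02 on rescaled values, where none passed. WT male 2 was above all other WT livers in 10 of these 16 genes (*Fga*, *Fgb*, *Fgg*, *Itih3*, *Itih4*, *C4b*, *Cp*, *Serpina3n*, *Lbp* and *Lcn2*), as it was in 12.2% of all tested genes.

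Of 10 negative acute phase genes, 4 rose, 2 fell and 4 did not pass as deposited, and 1 rose and 4 fell on rescaled values. *Ttr*, transthyretin, fell by 1.10 (limma adjusted p = 0.00033) and *Apoa2*, an apolipoprotein of HDL, by 0.85 (limma adjusted p = 0.0024). *Trf*, transferrin, which carries iron in plasma, rose by 1.56 (limma adjusted p = 8.2e-07) and by 1.09 on rescaled values, from 9167 to 11781 TPM in WT to 26477 to 35318 TPM in KO. *Ahsg*, fetuin A, rose by 0.67 (limma adjusted p = 0.0013) and was 0.20 on rescaled values (limma adjusted p = 0.27).

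The upstream pathway was read from lists of its genes. Of 8 cytokine genes, 3 could be tested and all 3 rose on either scale: *Il1b* by 1.52 (limma adjusted p = 0.0021), *Lif* by 1.08 (limma adjusted p = 5.9e-05) and *Il1a* by 0.88 (limma adjusted p = 0.00035). *Lif* was at most 0.0931 TPM in any WT liver. It thus passed the filter only through the KO livers, and its rise is a description. *Il1b* and *Il1a* were at least 0.858 and 1.34 TPM in every WT liver. *Il6* was below the filter, at 0 to 0.225 TPM in WT and 0.0882 to 0.701 TPM in KO. Of 8 receptor genes, 4 rose and 2 fell, or 3 and 3 on rescaled values, so the share that rose as deposited was near the 50.1% of all tested genes; *Il22ra1* rose by 2.45 (limma adjusted p = 7.0e-08), *Osmr*, the oncostatin M receptor, by 2.09 (limma adjusted p = 7.2e-07) and *Tnfrsf1a*, a TNF receptor, by 1.13 (limma adjusted p = 8.8e-07), and *Lifr*, the LIF receptor, fell by 2.24 (limma adjusted p = 2.8e-08). The receptor genes of IL-1 and IL-6 were named after their values were seen. *Il1rap* was -1.03 (limma adjusted p = 1.2e-05) and -1.46 on rescaled values. *Il1r1* rose by 0.60 as deposited alone (limma adjusted p = 0.0091). *Il6ra* fell on rescaled values alone (-0.77, limma adjusted p = 0.014), and *Il6st* passed on neither scale. Of 12 transcription factor and feedback genes, 9 rose and 0 fell, or 4 and 2 on rescaled values. The 2 that fell there were *Cebpa* (-0.78) and *Nr3c1* (-0.44). *Socs3*, a feedback inhibitor that STAT3 induces, rose by 2.68 (limma adjusted p = 2.9e-05) and *Nfkbiz*, an NF-kB cofactor, by 1.51 (limma adjusted p = 0.00027), on either scale. *Cebpd* and *Nfkbia* rose by 1.17 and 1.10 (limma adjusted p = 0.0035 and 0.0012) and missed the threshold on rescaled values (limma adjusted p = 0.080 and 0.074).

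**Figure D5:**
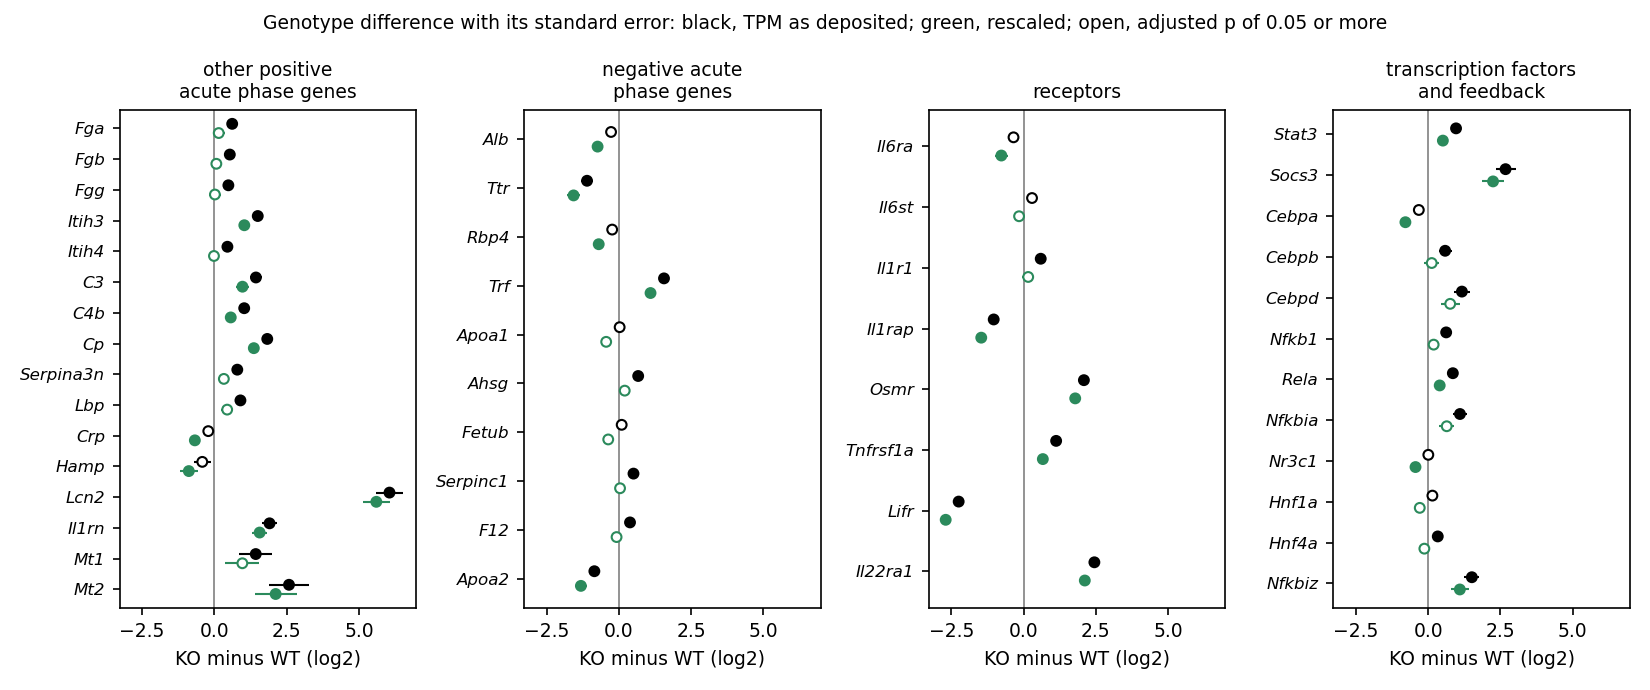
KO minus WT difference (log2) with its SE for 4 lists of genes related to the acute phase response; black is TPM as deposited, green is rescaled values, and an open point has a limma adjusted p of 0.05 or more. *Lcn2*, at 6.06, lies farthest to the right, and the fibrinogen chains move from filled black to open green points.

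Haptoglobin and hemopexin hand haemoglobin and haem to receptors and to the haem breakdown pathway. Of 8 genes of this pathway 5 rose and 0 fell, or 2 rose and 3 fell on rescaled values. *Hmox1*, haem oxygenase 1, rose by 1.93 (limma adjusted p = 1.4e-07), from 9.82 to 19.1 TPM in WT to 52.2 to 70.5 TPM in KO. *Slc40a1*, the iron exporter ferroportin, and the ferritin genes *Fth1* and *Ftl1* rose by 0.86, 0.81 and 0.72 (limma adjusted p = 0.0055, 2.9e-05 and 0.00031), of which *Fth1* alone passed on rescaled values (0.35, limma adjusted p = 0.049). *Cd163*, the macrophage receptor for haptoglobin with haemoglobin, did not pass (-0.37, limma adjusted p = 0.18) and fell on rescaled values (-0.70, limma adjusted p = 0.018), while all 10 macrophage markers rose as deposited and 9 on rescaled values. *Lrp1*, the receptor for hemopexin with haem, rose by 0.42 (limma adjusted p = 0.0079) and was -0.05 on rescaled values. The erythroid markers did not pass in any of 5 genes, on either scale.

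Of 8 tested genes for serum amyloid A receptors and HDL remodelling, 6 rose and 0 fell, or 4 and 2 on rescaled values. *Cd36*, a scavenger receptor, rose by 2.79 (limma adjusted p = 1.5e-06), *Tlr2*, a pattern receptor that binds serum amyloid A, by 1.74 (limma adjusted p = 4.4e-06), *Pltp*, phospholipid transfer protein, by 1.04 (limma adjusted p = 0.0033) and *Scarb1*, the HDL receptor, by 0.89 (limma adjusted p = 2.6e-05). All of these but *Pltp* (limma adjusted p = 0.057) passed on rescaled values. *Fpr2*, another receptor for serum amyloid A, was low, at 0.126 TPM in WT male 2, 0.329 to 0.774 TPM in the other WT livers and 0.578 to 3.28 TPM in KO, and rose by 0.65 (limma adjusted p = 0.037; 0.15 on rescaled values).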

How the data were processed

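RNA of 12 flash-frozen livers was sequenced, and the authors deposited 1 table of TPM per gene and mouse, per the file headers. The submitters' processing notes name GRCm38 and edgeR with no role; the aligner, counter and annotation are not given in the sources used here. The table also holds columns in which the authors compared the genotypes, per the file headers: a signed fold change, treated here as a score, its log2 value and an FDR p-value, all 3 printed from the authors' deposited table or not used. Depth is unknown, since TPM keep none and low values did not resolve into whole reads (58.1% to 66.05% within 0.1), so no counting interval is given and precision rests on the spread between mice, which is all that p-values measure here.

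Genes with a mean of at least 0.5 TPM were tested on log2(TPM + 1) with limma 3.58.1 in R 4.3.3 (lmFit, eBayes with an intensity trend), two-sided, with Benjamini-Hochberg adjustment over all tested genes and a threshold of 0.05. A fold change on this scale understates that of low genes. KO and WT were compared over 12 mice with sex as a covariate. The differences within each sex, between sexes and in the interaction came from a fit of the 4 group means. On simulated data with 12278 genes, 86% of genotype changes of 1 and 99% of changes of 2 (log2) were recovered, and 0.091% of unchanged genes were called. That simulation changed 100 genes by each size, as many up as down, with independent normal noise and no shift of whole libraries. In the real data 54.9% of tested genes were called and most of these were higher, so these rates are not error rates for them. Rescaling divided each library by the median of its gene ratios to the geometric mean over libraries. Other settings were a pseudocount of 0.1, no filter or a mean TPM of at least 5, sums without the 20 most abundant genes or without the 10 genes, a covariate for 2 early animal numbers, no intensity trend, each mouse left out, and, chosen after the data were seen, rescaling without WT male 2 and pairs without WT male 2. Exact permutations used scipy 1.17.1 and numpy 2.4.6 in python 3.11.15.

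The 10 genes and all lists were chosen with earlier results of these data known. From each pathway list, up to 4 genes past the threshold with the largest change were named, with receptors or ligands of the 10 genes; marker lists are given by counts and sums, and for each of the 10 genes the 3 genes with the most similar deviations were considered. As deposited, 6 of 8 fibroblast and stellate markers rose, 1 of 6 endothelial markers rose and 1 fell, 0 of 4 tested lymphocyte markers passed, 4 of 6 tested neutrophil markers rose, 2 of 4 tested cholangiocyte markers rose and 1 fell, 2 of 2 tested adipocyte markers rose, and 1 of 10 hepatocyte markers rose and 2 fell. On rescaled values 4 fibroblast and stellate markers rose and 1 fell, 0 endothelial markers rose and 2 fell, 1 neutrophil marker rose, 0 hepatocyte markers rose and 4 fell, and the counts of the other 3 lists were as before.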

Additional observations from a re-analysis of the deposited data

Results flagged for a closer look

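Among the 6 mice of each genotype, the highest or the lowest value of each of the 10 genes was set against the gap to its nearest neighbour, as a share of the whole range. A share above 0.625, Dixon's critical value for 6 values, was met in 7 of the 20 sets tested. The nominal rate of about 1 in 20 holds for normal values, and the shares were taken on TPM and not on the log scale. That rate is thus no background for the count, and the share over all tested genes was not computed. In 5 of them the mouse was WT male 2, with 2030 TPM of *Saa1*, 1495 TPM of *Saa2*, 496 TPM of *Saa4*, 6800 TPM of *Hp* and 6495 TPM of *Hpx*, each above the 5 other WT livers. WT male 1 stood above the others in *Saa3* at 9.17 TPM. KO male 2 stood above the other KO livers in *Saa4* at 207 TPM. The sets share mice and are not independent of one another, and no cause was tested.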

How the results depend on the processing

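Over 21 other settings, or 20 for *Saa3*, which the filter of at least 5 TPM removes, the genotype differences of the 10 genes kept their direction. *Saa1* and *Saa2* lost their call on rescaled values, *Apcs* gained one without KO female 2, and *Saa3* gained one with rescaling and without WT male 2 together, a setting chosen after the data were seen. Genes called over the whole table went from 6745 to 4453 with a mean TPM of at least 5, which tests fewer genes, and to between 6220 and 6845 with 1 mouse left out. Within males 5663 became 3762 with that filter, 2959 on rescaled values, 2590 with rescaling and without WT male 2, and 4436 to 5627 with 1 mouse left out. Within females 4151 became 2656 with the filter and 3092 to 4536 with 1 mouse left out. The interaction called 112, and 75 to 176 with 1 mouse left out. The sexes differed in 705 genes in WT, 409 with the early-number covariate, 271 with rescaling and without WT male 2, and 290 to 1696 with 1 mouse left out; in KO they differed in 10, 6 with the filter, and 6 to 10 with 1 mouse left out.

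Of the 10 genes, those that fell with genotype went from 1 to 2 with rescaling and without WT male 2. Leaving out 1 mouse gave 6 to 8 rises and 0 to 1 falls within males, 3 to 7 rises and 0 to 1 falls within females, 0 to 1 in the interaction, and 0 to 2 higher and 0 to 2 lower between the sexes in WT. Falls within females went to 0 with no filter, which tests more genes; the interaction called 1 gene with the early-number covariate; and 2 genes were lower in WT males without the 20 most abundant genes in the sum. Pairs past the threshold went from 25 to 12 with rank correlation. Differences that changed sign were small or not called. With 1 mouse left out, *Saa3* within males ran from -0.75 to 0.11; the interaction from -0.18 to 0.67 for *Saa3*, -0.47 to 0.24 for *Saa4*, -0.10 to 0.40 for *Orm1* and -0.19 to 0.24 for *Hpx*; the WT sex difference from -0.24 to 0.45 for *Saa3*, -0.090 to 0.41 for *Orm1*, -1.30 to 0.35 for *Orm2* and -0.056 to 0.37 for *Hpx*; and the KO sex difference from -0.034 to 1.08 for *Saa1*, -0.15 to 0.87 for *Saa2* and -0.0031 to 0.15 for *Hp*. With rescaling and without WT male 2 the interaction was -0.19 for *Saa3*, 0.080 for *Saa4* and 0.083 for *Hpx*, and on rescaled values it was -0.056 for *Orm1*. Where no construction is named, the cause was not tested. No paired analysis was possible because the replicate numbers were given in order of deposition and pair no animals. TPM hold no depth, so counting error could not be computed.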
